A study of Mus musculus with 6 samples.

Results

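Inhibins and activins are hormones of the TGF-beta family that granulosa cells (GCs) of growing follicles make and secrete. The values of 8 of their genes were taken from the deposited expression table of 54532 genes, by gene name: the subunit genes Inha, Inhba and Inhbb, the binding protein genes Fst and Fstl3, and the receptor genes Acvr1b, Acvr2a and Acvr2b. GCs came from 3-week-old female ICR mice, all of which had been primed with PMSG, a gonadotropin that drives follicles to grow, at 5 IU and 22 h before treatment. The mice were then injected intraperitoneally with PBS or with 120 mg/kg cyclophosphamide (CTX), an alkylating drug that the body converts to a DNA-crosslinking form, and GCs were taken after 6 h. The groups were of 3 samples each, with GCs of 3 mice pooled per sample, so the spread between samples is a spread between pools and not between single animals.

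An inhibin is a dimer of the alpha subunit, encoded by Inha, with a beta subunit, encoded by Inhba or Inhbb, whereas an activin is a dimer of beta subunits alone. Activins bind the type II receptors ACVR2A and ACVR2B, which recruit the type I receptor ACVR1B and signal through SMAD2 and SMAD3. Inhibins occupy the type II receptors without that signal, follistatin (Fst) and follistatin-like 3 (Fstl3) trap activins outside the cell, and inhibin from the follicle lowers the release of follicle-stimulating hormone (FSH) by the pituitary.

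The question for these genes was how far their mRNA levels in GCs differed 6 h after CTX. The beta subunit genes had lower levels in every CTX sample than in any PBS sample, as did 14.1% of all genes tested. Their CTX means were 55.0% of the PBS mean for Inhba and 51.2% for Inhbb. Neither difference passed the test across all genes, and the CTX samples of both differed widely from each other. The CTX samples were at 89.1% to 95.6% of the PBS mean for the alpha subunit gene, also each below every PBS sample. For Fst they were at 91.0% to 104%. The levels of the 3 receptor genes overlapped between the groups.

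Levels are given as FPKM (fragments counted per kilobase of gene length and adjusted for sequencing depth), and the reads behind them could be rebuilt from the gene lengths. Reads on genes came to between 16005869 and 18455011 per sample. CTX replicate 2 stood apart from the other samples. On the first principal component of all genes tested, which held 46.8% of the variance, it scored 74.7. CTX replicates 1 and 3 scored -9.81 and 13.2, and the PBS samples between -26.6 and -25.3. The groups thus did not overlap on it. All 6 granulosa markers were present in every sample, with a summed level of 1361 to 1443 FPKM after PBS and of 1081 to 1266 FPKM after CTX. Of these markers, Foxl2, Fshr, Cyp19a1 and Hsd17b1 were lower in every CTX sample than in any PBS sample, and Amh was higher. Of all genes tested, 14.1% were lower and 15.0% higher in this way. At an adjusted p under 0.05, 0 of the 6 markers passed the test across all genes, where 1.76% of all genes did. The other cell types that follicle puncture could release also left reads. The 3 theca markers summed to 35.3 to 37.9 FPKM after PBS and to 34.1, 8.61 and 17.6 FPKM in CTX replicates 1, 2 and 3. After PBS most of this was Cyp17a1, at 30.8 to 34.4 FPKM, and it was at 29.6, 1.25 and 12.4 FPKM after CTX. The other theca markers, Insl3 and Ptch1, had log2 fold changes above 0 (0.89 and 0.40) with overlapping groups. Of the 3 theca markers, 0 passed the test across all genes, where 1.76% of all genes did. The 4 stroma markers summed to 15.3 to 16.5 FPKM after PBS and to 31.7, 5.98 and 23.3 FPKM after CTX. The 5 immune markers summed to 16.5 to 18.4 FPKM after PBS and to 28.6, 56.5 and 19.5 FPKM after CTX. Cd68 and Lyz2, 2 of the 3 immune markers tested, were higher in every CTX sample than in any PBS sample. That was so for 15.0% of all genes tested. At an adjusted p under 0.05, 0 of these 3 passed, where 1.76% of all genes did. Ptprc, which marks leukocytes in general, was at 0.0983 FPKM or less in each sample and was not tested. The 4 endothelial markers summed to 4.41 to 5.38 FPKM after PBS and to 1.78 to 4.05 FPKM after CTX. Only Cdh5 of these was tested (adjusted p = 0.256 from limma). It was lower in every CTX sample than in any PBS sample, as were 14.1% of all genes tested. The 5 oocyte markers summed to 29.5 to 59.8 FPKM after PBS and to 39.1 to 72.04 FPKM after CTX. No listed marker was at 0 in all samples. The part of these cells in the results was not tested, and in bulk samples fewer cells of a type and less RNA per cell cannot be told apart.

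The genes whose levels differed most between the groups, Inhba and Inhbb, lie on different chromosomes. Inhba occupies chr13:16011851-16031621 on the plus strand and Inhbb chr1:119415465-119422248 on the minus strand (GRCm38). The 250 bases before the start of each are shown because their levels moved together across the samples, as described later. They come from RefSeq on GRCm38.p6, chr13:16011601-16011850 on the plus strand for Inhba and chr1:119422249-119422498 on the minus strand for Inhbb, are written 5′ to 3′, and have each CpG dinucleotide in capitals.
Inhba: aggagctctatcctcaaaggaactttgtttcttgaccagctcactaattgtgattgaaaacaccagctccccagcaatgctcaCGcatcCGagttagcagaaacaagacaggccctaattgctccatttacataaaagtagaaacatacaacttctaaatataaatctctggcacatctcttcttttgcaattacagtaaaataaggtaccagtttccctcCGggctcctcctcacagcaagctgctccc
Inhbb: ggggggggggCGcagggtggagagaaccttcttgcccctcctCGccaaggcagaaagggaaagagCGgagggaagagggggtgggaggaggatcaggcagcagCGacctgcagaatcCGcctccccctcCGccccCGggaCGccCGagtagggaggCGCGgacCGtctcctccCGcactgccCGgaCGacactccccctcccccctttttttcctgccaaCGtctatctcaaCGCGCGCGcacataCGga
The Inhba stretch held 3 CpG dinucleotides at a GC content of 43.2%. The Inhbb stretch held 21 at 68.0%. The median over 32851 promoters was 6 at 52.4%, and 16.3% of them had at least as many CpG dinucleotides as Inhbb. The upstream stretches of the 2 genes thus lay on opposite sides of the median.

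RefSeq gave a promoter for 7 of the 8 genes, all except Fst. In windows of 300 bases, from 250 before to 50 after the start, 5 motifs were searched on both strands: the cAMP response element TGACGTCA, its shorter form TGACG (which the longer one contains), the AP-1 site TGANTCA, the NR5A site AAGGTCA and the SMAD palindrome GTCTAGAC. None of these letters occurred in any of the 7 windows. Over all 32851 promoters the shares with a match were 1.79%, 20.8%, 7.81%, 4.72% and 0.213%, in that order. For Inha, the RefSeq start lay 532 bases inside the start given in the deposited table. Its window, chr1:75507359-75507658, thus lay wholly inside the deposited gene. The bases before the deposited start of Inha were not searched, so the lack of a match there says nothing about them.

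Inha, the gene of the alpha subunit (chr1:75507077-75510366, plus strand), had the highest level of the 8 genes. It was at 9205, 9212 and 10402 FPKM in PBS replicates 1, 2 and 3 and at 8933, 9180 and 8556 FPKM in CTX replicates 1, 2 and 3. Every CTX sample lay below every PBS sample, but the gap between CTX replicate 2 and PBS replicate 1 was smaller than the spread within either group. By mean FPKM, Inha ranked 1 among 22046 protein-coding genes after PBS and 2 after CTX. It took 1.44% ± 0.0972 of all reads on genes after PBS and 1.31% ± 0.0369 after CTX (SD, n = 3). On the log2(FPKM + 0.1) scale, limma gave a log2 fold change (CTX over PBS) of -0.11 (standard error 0.18, 95% interval -0.54 to 0.32, adjusted p = 0.748).

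Inhba encodes the beta A subunit, which makes inhibin A with the alpha subunit and activin A with itself. Its level was 902, 822 and 754 FPKM after PBS. After CTX it was 665, 211 and 487 FPKM. All 3 CTX samples were lower than the lowest PBS sample, and CTX replicate 2 was lowest of all. They stood at 80.5%, 25.6% and 59.0% of the PBS mean. The coefficient of variation was 8.99% after PBS and 50.3% after CTX. Among protein-coding genes Inhba ranked 23 after PBS and 68 after CTX. In limma the log2 fold change was -1.01 (standard error 0.40, 95% interval -1.98 to -0.037, adjusted p = 0.244). Without CTX replicate 2 it was -0.53, with an adjusted p of 0.147 from limma, so that library alone moved the value by more than 1.5 times.

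Inhbb encodes the beta B subunit, of inhibin B and activin B. It was at 1629, 1583 and 1658 FPKM after PBS and at 1070, 530 and 895 FPKM after CTX. The groups did not overlap, and the lowest PBS sample was above the highest CTX sample by more than the whole PBS range. The CTX samples stood at 65.9%, 32.6% and 55.1% of the PBS mean, again with replicate 2 lowest. The coefficient of variation was 2.32% after PBS and 33.1% after CTX. In rank among protein-coding genes Inhbb went from 8 to 28. In limma the log2 fold change was -1.03 (standard error 0.26, 95% interval -1.65 to -0.40, adjusted p = 0.124). With CTX replicate 2 left out, the value was -0.73, less than 2-fold, and limma's adjusted p was 0.0331.

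Across the 6 samples, the log2 levels of Inhba and Inhbb had a Pearson r of 0.96. That is a description over 6 samples that share the treatment groups and the spread of CTX replicate 2. The order of the CTX samples was the same for both genes, with replicate 1 highest and replicate 2 lowest. Inha did not share this order, since its CTX replicate 2 was the highest of the 3, and its r was 0.25 with Inhba and 0.46 with Inhbb.

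**Figure D1:**
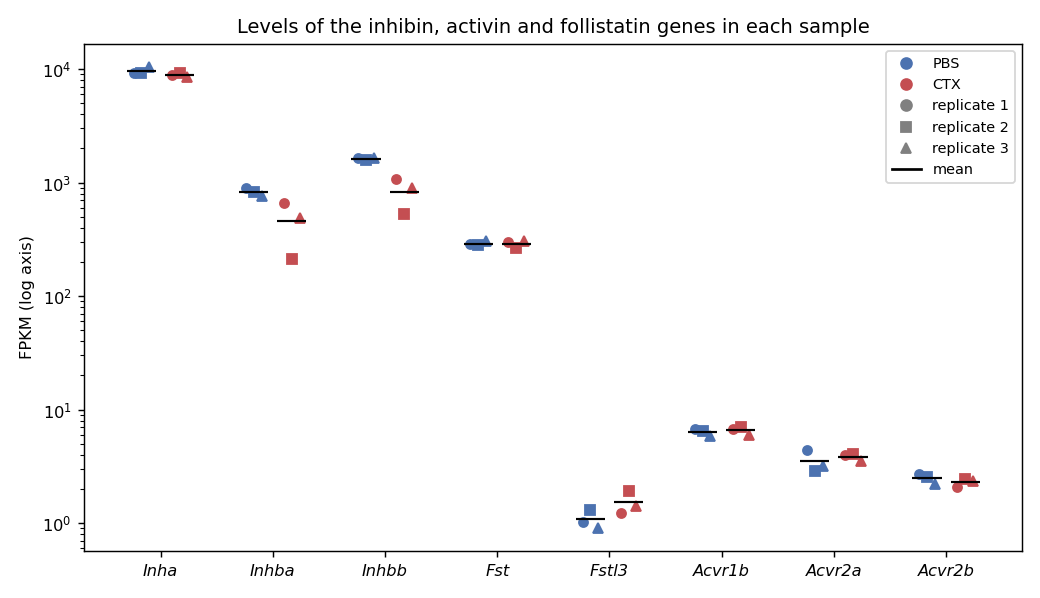
FPKM of each gene (log axis) in the 3 PBS (blue) and 3 CTX (red) samples; markers give the replicate and black lines the group means. Inhba and Inhbb lie lower in every CTX sample, with replicate 2 (square) lowest, while the Fst samples sit between 264 and 303 FPKM over both groups and the receptor genes at 7.08 FPKM or less.

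Fst encodes follistatin, which binds activins tightly and keeps them from their receptors (chr13:114452290-114458951, minus strand). Its level was 287, 281 and 303 FPKM after PBS and 302, 264 and 303 FPKM after CTX. The groups overlapped, and CTX replicate 2 was the lowest sample. Limma gave a log2 fold change of -0.0044 (standard error 0.087, 95% interval -0.21 to 0.20, adjusted p = 0.986). As a fold, that interval runs from 0.862 to 1.15, the narrowest of the 8 genes.

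Fstl3, which encodes the related activin-binding protein follistatin-like 3 (chr10:79777272-79782630, plus strand), was the lowest of the 8 genes. It was at 1.03, 1.29 and 0.909 FPKM after PBS and at 1.24, 1.94 and 1.42 FPKM after CTX. These levels rested on 36 to 58 reads per PBS sample and 55 to 84 per CTX sample. CTX replicate 2 was the highest sample, and CTX replicate 1 lay below PBS replicate 2, so the groups overlapped. The log2 fold change was 0.46 (standard error 0.23, 95% interval -0.086 to 1.00, adjusted p = 0.310 from limma). Across the 6 samples its log2 level ran against those of the beta subunit genes, with an r of -0.88 with Inhba and of -0.91 with Inhbb. These r values too describe 6 samples that share the treatment groups and the spread of CTX replicate 2.

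Acvr1b encodes the type I activin receptor that the type II receptors recruit (chr15:101174067-101213684, plus strand). It was at 6.79, 6.42 and 5.84 FPKM after PBS and at 6.79, 7.08 and 5.93 FPKM after CTX. The groups overlapped, with replicate 3 lowest in each. Its log2 fold change was 0.053 (95% interval -0.19 to 0.30, adjusted p = 0.786 from limma), and the sign turned with the scaling, to -0.021 with equal FPKM totals.

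Acvr2a, a type II receptor gene (chr2:48814109-48903269, plus strand), was at 4.42, 2.88 and 3.20 FPKM after PBS and at 3.96, 4.06 and 3.53 FPKM after CTX. PBS replicate 1 was the highest of the 6 samples, and the CTX values all fell inside the PBS range. Its log2 fold change was 0.16 (95% interval -0.26 to 0.57, adjusted p = 0.625 from limma). Its last 446 bases are shared with Orc4 on the opposite strand. Orc4 had at most 794 reads per sample, and Acvr2a had 295 to 448. Since the strandedness of the counting is not given in the sources used here, reads in the shared bases cannot be told apart.

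Acvr2b, the other type II receptor gene (chr9:119402118-119434995, plus strand), was at 2.69, 2.56 and 2.22 FPKM after PBS and at 2.07, 2.45 and 2.37 FPKM after CTX. CTX replicate 1 was the lowest sample and the groups overlapped. Its log2 fold change was -0.11 (95% interval -0.42 to 0.20, adjusted p = 0.650 from limma). The receptor genes thus had no detectable difference at a depth of 141 to 555 reads per gene and sample, and their 95% intervals together reached from -0.42 to 0.57. Inhba, Fst, Fstl3 and Acvr2b also overlap genes on the opposite strand, which had at most 84, 11, 1 and 1 reads per sample.

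All 8 genes passed the filter on low values (a mean of at least 0.5 FPKM). At an adjusted p under 0.05 and a change of more than 2-fold, limma called 0 of the 8, against 0.961% of the 14463 genes tested. Without the fold threshold 0 of the 8 passed, against 1.76% of all genes. At an unadjusted p under 0.05 there were 2 of the 8, Inhba and Inhbb, where 19.6% of all genes were. With limma's voom on the rebuilt reads 0 of the 8 passed, and the adjusted p was 0.0974 for Inhbb and 0.215 for Inhba. Every CTX sample was below every PBS sample for 3 of the 8, and this was so for 14.1% of all genes tested. The opposite separation was seen for 0 of the 8 and for 15.0% of all genes. The median log2 fold change was -0.056 over the 8 genes and -0.0081 over all genes tested.

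**Figure D2:**
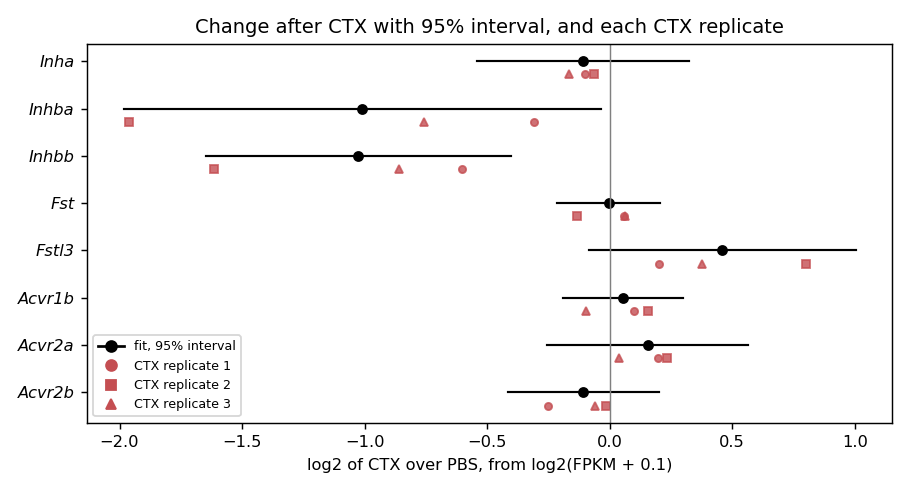
Log2 fold change of CTX over PBS for each gene (black circle) with its 95% interval (line), and each CTX replicate against the mean of the PBS samples on the same log2 scale (red markers below each line). The intervals of Inhba (-1.98 to -0.037) and Inhbb (-1.65 to -0.40) are the only ones that lie wholly below 0 before adjustment over all genes, and CTX replicate 2 (square) is the farthest from 0 for both.

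The order of the levels per length of gene was Inha, Inhbb, Inhba, Fst, Acvr1b, Acvr2a, Acvr2b and Fstl3 after PBS, and each neighbour in it was separated from the next over the 3 samples. Inha was 5.92 times Inhbb, Inhbb 1.97 times Inhba and Inhba 2.85 times Fst, by group mean. The step from Fst to Acvr1b, the highest receptor gene, was 45.7 times. After CTX the order of the means was the same, but Inhbb and Inhba overlapped, and so did Inhba and Fst. In CTX replicate 2, Inhba at 211 FPKM was below Fst at 264 FPKM, which occurred in no other sample.

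Ratios within a sample do not depend on the scaling between samples. A two-sided exact permutation test over 3 against 3 samples cannot give a p below 0.1, so none of the 6 ratios could pass, and p-values were adjusted over the 6. The ratio of Inha to Inhbb was 5.65, 5.82 and 6.28 after PBS and 8.35, 17.3 and 9.56 after CTX. All CTX samples were above all PBS samples. The difference in log2 ratio was 0.92 (exact permutation p = 0.1, adjusted p = 0.2), and 0.60 without CTX replicate 2. The ratio of Inha to Inhba was 10.2, 11.2 and 13.8 after PBS and 13.4, 43.4 and 17.6 after CTX. Here CTX replicate 1 lay inside the PBS range, and the log2 difference of 0.90 (exact permutation p = 0.2, adjusted p = 0.24) was 0.40 without CTX replicate 2. Against the sum of both beta subunit genes, Inha was at 3.93 ± 0.349 after PBS and 7.91 ± 3.91 after CTX (SD, n = 3, exact permutation p = 0.1, adjusted p = 0.2). The log2 difference of 0.91 was 0.53 without CTX replicate 2.

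The ratio of Fst to the sum of Inhba and Inhbb was 0.113, 0.117 and 0.126 after PBS and 0.174, 0.356 and 0.219 after CTX. Every CTX sample was higher than every PBS sample, with a log2 difference of 1.01 (exact permutation p = 0.1, adjusted p = 0.2) and of 0.72 without CTX replicate 2. The numerator of this ratio, Fst, hardly moved, and the sum of the beta subunit genes was lower in each CTX sample. The ratio of Inhba to Inhbb was 0.509 ± 0.0503 after PBS and 0.522 ± 0.113 after CTX (SD, n = 3). Its groups overlapped, and the exact permutation p was 1. The ratio of Fst to Fstl3 was 276 ± 58.0 after PBS and 198 ± 55.3 after CTX (SD, n = 3), again with overlap (exact permutation p = 0.2, adjusted p = 0.24), and its log2 difference of -0.50 was -0.25 without CTX replicate 2.

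**Figure D3:**
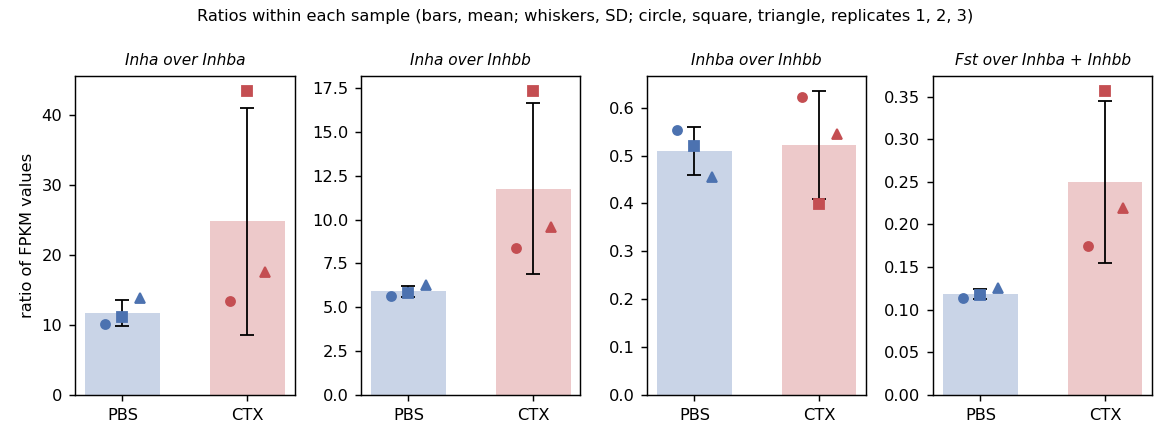
Ratios of FPKM values within each sample for the PBS and CTX groups (bars, mean; whiskers, SD; markers, replicates), each panel on its own axis from 0. The ratios of Inha to Inhbb and of Fst to the beta subunit genes are higher in all 3 CTX samples (from 8.35 and 0.174 up), while the ratio of Inhba to Inhbb, with means of 0.509 and 0.522, overlaps.

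Of 12 other ligand, receptor and co-receptor genes of the pathway, 7 passed the filter on low values and were tested. In limma 0 passed at an adjusted p under 0.05 (1.76% of all genes tested did). Every CTX sample was below every PBS sample for 2 of the 7 and above for 1, where 14.1% and 15.0% of all genes were. At an unadjusted p under 0.05 in limma there was 1 (19.6% of all genes were). That gene was Gdf11, an activin-like ligand, which was at 4.03, 4.50 and 4.80 FPKM after PBS and at 3.82, 2.01 and 2.64 FPKM after CTX (log2 fold change -0.68, adjusted p = 0.191 from limma). Its groups did not overlap, and CTX replicate 2 was lowest here too. Tdgf1, a co-receptor of Nodal, had a log2 fold change of 0.58 (adjusted p = 0.336 from limma). Bambi, a decoy receptor without a kinase, had one of 0.34 (adjusted p = 0.259 from limma). Tgfbr3l, an inhibin B co-receptor of the pituitary, had one of -0.29 (adjusted p = 0.286 from limma). Of the 5 genes below the filter, Mstn had no read in any sample, Inhbc had at most 2 reads, Inhbe and Nodal had at most 1, and Acvr1c had at most 16.

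The proteases that cut the subunit precursors gave 0 of 3 at an adjusted p under 0.05 in limma and 1 at an unadjusted p under 0.05, Pcsk5, where 1.76% and 19.6% of all genes tested were. It was at 21.5, 20.3 and 21.8 FPKM after PBS and at 20.0, 14.6 and 13.6 FPKM after CTX, without overlap (log2 fold change -0.42, adjusted p = 0.203 from limma). Pcsk6 had a log2 fold change of 0.19 (adjusted p = 0.472) and Furin one of 0.06 (adjusted p = 0.769), both from limma.

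Among 15 genes of SMAD2/3 signalling, 14 were tested, and 12 had a log2 fold change above 0, with a median of 0.28. In limma 1 passed at an adjusted p under 0.05, against 1.76% of all genes tested, and 0 also passed the 2-fold threshold. At an unadjusted p under 0.05 in limma were 5 of the 14, and 19.6% of all genes. The gene that rose was Skil, which encodes the SMAD co-repressor SnoN. It was at 9.02, 8.84 and 6.95 FPKM after PBS and at 14.7, 14.4 and 16.7 FPKM after CTX (log2 fold change 0.88, standard error 0.12, adjusted p = 0.0252 from limma). Unlike the beta subunit genes, its CTX replicate 2 lay close to replicate 1. Leaving out PBS replicate 1, 2 or 3 or CTX replicate 3 gave Skil an adjusted p of 0.0961, 0.108, 0.0683 or 0.101 in limma, above 0.05, and the log2 fold change was 0.76 to 0.95 with 1 sample left out. The replicate block (adjusted p = 0.145) and equal FPKM totals (adjusted p = 0.0517) also left it above 0.05 in limma. Smad7, the inhibitory SMAD that activin and TGF-beta signalling induce, was at 6.08, 5.96 and 5.68 FPKM after PBS and at 6.25, 21.99 and 10.2 FPKM after CTX (log2 fold change 0.91, adjusted p = 0.287 from limma). Replicate 1 of CTX was barely above the PBS samples, and replicate 2 was highest. Ski, a co-repressor related to Skil, had a log2 fold change of 0.53 (adjusted p = 0.127) and Pmepa1, which limits SMAD activation, one of 0.39 (adjusted p = 0.432), both from limma. Every CTX sample was above every PBS sample for 5 of the 14 genes tested, and for 0 was it below, where 15.0% and 14.1% of all genes were.

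The regulators of subunit and follistatin transcription were 10 genes, all tested, of which 8 had a log2 fold change below 0, with a median of -0.39. In limma 0 passed at an adjusted p under 0.05 (1.76% of all genes did), and 2 were at an unadjusted p under 0.05, a share near the 19.6% of all genes. Every CTX sample was below every PBS sample for 3 of the 10, and for 14.1% of all genes. Foxl2, a forkhead factor that maintains GC identity, was at 186, 184 and 193 FPKM after PBS and at 145, 76.9 and 107 FPKM after CTX (log2 fold change -0.82, adjusted p = 0.137 from limma). Its CTX samples had the same order as those of Inhba and Inhbb. Lhcgr, the receptor for luteinizing hormone, was at 112, 113 and 108 FPKM after PBS and at 129, 1.48 and 53.1 FPKM after CTX (log2 fold change -2.33, adjusted p = 0.424 from limma). CTX replicate 1 was above all PBS samples, and replicate 2 was far below them. Nr5a1, the steroidogenic factor SF-1, had a log2 fold change of -0.64 (adjusted p = 0.348) and Esr2, the estrogen receptor of GCs, one of 0.57 (adjusted p = 0.369), both from limma and both with overlapping groups. Fshr, the FSH receptor gene, which like Foxl2 and Nr5a2 is also among the granulosa markers, stood at 92.2, 88.5 and 94.5 FPKM after PBS and at 80.5, 42.8 and 69.9 FPKM after CTX (log2 fold change -0.56, adjusted p = 0.248 from limma). Lists of these genes were described by counts and medians only, beside a median of -0.0081 over all genes tested.

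**Figure D4:**
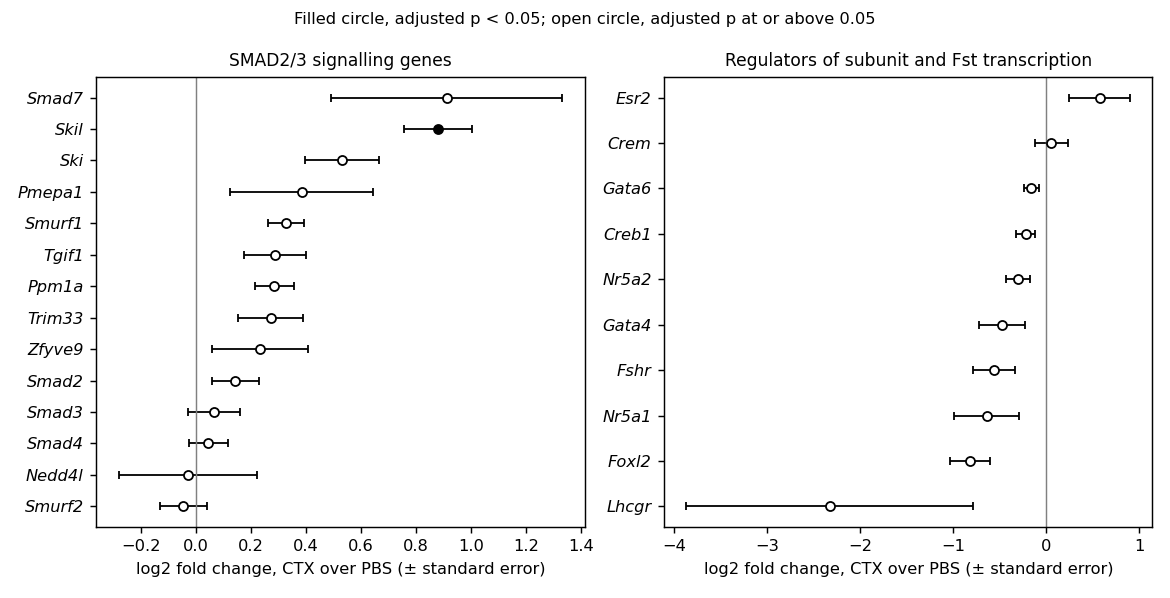
Log2 fold change of CTX over PBS (points) with its standard error (bars) for the tested SMAD2/3 signalling genes (left) and the regulators of subunit and Fst transcription (right), on separate axes. Skil is the only filled point (adjusted p = 0.0252, which rose above 0.05 with the replicate block and with equal FPKM totals), 12 of 14 signalling genes lie above 0, and 8 of 10 regulators lie below 0, with Lhcgr at -2.33.

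The genes most like each member were found by Pearson r of log2(FPKM + 0.1) over the 6 samples among 7531 or 7532 other protein-coding genes with a mean of at least 5 FPKM. With 6 samples of which 1 stands apart, a high r is common, so the values are a description. For Inhba they were Slc26a7, Chst11 and Efna5 (r of 0.998, 0.998 and 0.997), and 404 genes had an r of at least 0.95. Slc26a7 stood at 107, 102 and 98.1 FPKM after PBS and at 88.8, 44.9 and 71.2 FPKM after CTX, with the same order of samples as Inhba in both groups. For Inhbb they were Ccnb2, Trib2 and She (r of 0.999, 0.998 and 0.998), with 281 genes at 0.95 or more. Ccnb2, a B-type cyclin of mitosis, stood at 67.8, 65.3 and 70.7 FPKM after PBS and at 50.2, 31.7 and 45.1 FPKM after CTX. For Inha they were Mydgf, Mrpl36 and Mcrs1 (r of 0.989, 0.984 and 0.978), and 15 genes reached 0.95. For Fst they were Mrps33, Pla2g4a and Eif2b2 (r of 0.988, 0.987 and 0.986), and 25 genes did. Fstl3 was most like Mtpap, Adprm and Pdk2 (r of 0.984, 0.983 and 0.983). Acvr1b was most like Tjp1, Vps39 and Trim23 (r of 0.998, 0.989 and 0.981), Acvr2a like Stag1, Srek1ip1 and Mcur1 (0.967, 0.954 and 0.944), and Acvr2b like Gmeb2, Gm17720 and Ikbkap (0.981, 0.965 and 0.964). At an r of at least 0.95 these 4 genes had 24, 14, 2 and 4 others, fewer than either beta subunit gene.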

How the data were processed

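RNA-seq of 6 samples of pooled mouse GCs was analysed, 3 per group, grouped by their labels, which give no batch or date. The authors deposited FPKM values per gene, with gene lengths and mm10 coordinates. The submitters' processing notes name CASAVA 1.8, fastp, HISAT2 2.0.5, featureCounts 1.5.0-p3 and, for the authors' own comparison, DESeq2 1.20.0 among their tools, without roles. The strandedness of counting is not given in the sources used here. The group means, fold changes, p-values and adjusted p-values that the table also holds are the authors' own and were not used. GENCODE M21 holds 54409 of the 54532 identifiers, 98.3% of them with identical start and end.

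Multiplied by gene length and divided by a unit fitted per sample, 100% of values above 0 were whole reads, with a scaling between samples of 0.982 to 1.03. The tolerance was 0.02 reads at low counts and grew with the count. At the read counts of Inha, and of Inhba and Inhbb in every sample except CTX replicate 2, this check could not fail. A total of 3 reads on a gene of 1 kb equals 0.164 to 0.185 FPKM. All genes with a mean of at least 0.5 FPKM over the 6 samples were fitted as log2(FPKM + 0.1) with limma 3.58.1 (lmFit, eBayes with trend) in R 4.3.3, after a check on simulated data, with Benjamini-Hochberg adjustment over all of them. The simulated data gave both groups the spread of the PBS samples. The check therefore does not show how the fit behaves with the wider spread seen after CTX. Fold changes are on the log2(FPKM + 0.1) scale, which understates changes of low genes. Calls required an adjusted p under 0.05 and more than 2-fold. Ratios were compared with two-sided exact permutation tests in SciPy 1.17.1. Python 3.11.15, pandas 2.3.3, NumPy 2.4.6 and, for plots, matplotlib 3.10.9 were used.

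The genes, lists and tests were chosen with earlier results of these data known. All 8 genes were named with every value, and from each pathway list the genes called and up to 4 with the largest absolute log2 fold change. Fshr, the genes below the filter and the alternatives for Skil were added after the values were seen. Alternatives tried were a pseudocount of 1 or 0.01, no filter or a mean of 5 FPKM, 3 scalings, arrayWeights, eBayes without trend, voom on rebuilt reads, a replicate block, no fold threshold, and each sample left out. Both groups carry replicate numbers, but each sample holds different mice, and the deviations of samples with the same number correlated at only 0.0556, 0.0242 and 0.00581, so the reported fit has no block.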

Additional observations from a re-analysis of the deposited data

How the results depend on the processing

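The count of 0 of the 8 genes called did not differ under any of the 17 alternatives run. At an adjusted p under 0.05 without a fold threshold it was 2 with arrayWeights (Inhba, -0.78, and Inhbb, -0.85; adjusted p = 0.00566 and 0.00109 from limma) and 0 to 1 with 1 sample left out. The arrayWeights estimate did not converge and gave CTX replicate 3 a weight of 16.6 and CTX replicate 2 one of 0.163. The log2 fold change of Inhbb was -1.24 to -0.73 and that of Inhba -1.36 to -0.53 with 1 sample left out, the smaller value of each without CTX replicate 2. The log2 difference of the ratio of Inhba to Inhbb was -0.12 to 0.20. Signs near 0 turned for Fst (0.075 with arrayWeights, -0.038 to 0.061 with 1 sample left out) and for Acvr1b (-0.021 with equal FPKM totals, -0.11 with arrayWeights, -0.0050 to 0.13 with 1 sample left out). With the replicate block, Inhbb was at -1.03 (adjusted p = 0.221) and Inhba at -1.01 (adjusted p = 0.282) in limma, and no call on the 8 genes changed. The adjusted p of Skil was above 0.05 with the block (0.145) and with equal FPKM totals (0.0517), in fits chosen after seeing the data. Over all genes, the 139 calls became 50 with the block, 657 with arrayWeights and 58 to 208 with 1 sample left out, and the 254 genes at an adjusted p under 0.05 became 53, 5753 and 70 to 528. A mean of at least 5 FPKM left Fstl3, Acvr2a and Acvr2b untested. The causes were not tested. With 3 pools per group, the values of Fstl3 rested on 36 to 84 reads per sample, and those of the receptor genes on 141 to 555.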
